A study of Caenorhabditis elegans with 3 samples.

Results

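The genes described here are 10 genes of one-carbon metabolism and phosphatidylcholine synthesis in Caenorhabditis elegans. They encode the S-adenosylmethionine (SAM) synthetases sams-1, sams-3, sams-4 and sams-5, the methionine cycle enzymes metr-1 and ahcy-1, the folate enzyme mel-32, the transsulfuration enzyme cbs-1, and the phosphoethanolamine methyltransferases pmt-1 and pmt-2. They were listed by name and found on probes that the platform annotation assigns to exactly 1 gene. All 10 were measured, each by 1 probe, out of 15168 genes named on the array. RNA of adult hermaphrodites was hybridised against RNA of a mixed wild-type (wt) reference. There were 3 arrays of 2 colours, 1 for each of preps 1 to 3. The adults were labelled TP11 and "adult w/ emb 2", and were read as carrying embryos. The meaning of TP11 and of the 2 in this label was left unread. The 3 preps form 1 group. The sources used here do not give the strain, genotype, age in hours or feeding of the adults, or the make-up of the reference. They also do not say if the preps came from separate cultures, and p-values then reflect only how these 3 samples varied, which may be technical variation.

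In the methionine cycle, a SAM synthetase joins methionine and ATP into SAM, the methyl donor for lipids, histones and RNA. Each methyl transfer leaves S-adenosylhomocysteine, which ahcy-1 splits to homocysteine. Methionine synthase (metr-1) turns homocysteine back to methionine with a methyl group from folate, which mel-32 loads from serine, while cbs-1 diverts homocysteine to cysteine. In the worm a large use of SAM is the stepwise methylation of phosphoethanolamine to phosphocholine: pmt-1 adds the first methyl group and pmt-2 the later ones. Phosphocholine then enters phosphatidylcholine, a major membrane phospholipid. In C. elegans, loss of sams-1 is known to lower phosphatidylcholine and raise fat storage through the lipogenic factor SBP-1.

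Each value below is a log2 ratio of adult RNA over reference RNA, centred on the median of its array, so that 1 means a doubling and 0 no difference. Positive was taken to mean adults over reference because the labels list the reference first and the adult RNA as the second channel. They name no dyes, so the direction is likely rather than settled. A ratio compares 1 gene between 2 RNA samples and does not say which gene had more RNA. In whole worms, fewer cells of a type and less RNA per cell cannot be told apart. The arrays correlated with a Pearson r of 0.776 to 0.829 over 19710 probes, and the robust SD of the ratios fell between 0.368 (prep 3) and 0.770 (prep 1). Oocyte and eggshell markers were set beside this reading of the labels. They were higher in the adults for 10 of 12 genes, where 15.8% of all probes were higher (adjusted p under 0.05 in limma). The highest was the yolk receptor gene rme-2 (2.45), whereas egg-1 (−0.31) was the lowest and did not pass the test. The list was chosen with earlier results of these data known, so it cannot serve as an independent check of the direction.

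Of the 10 genes, 4 were higher in the adults (mel-32, sams-3, sams-4 and pmt-2), 1 was lower (pmt-1) and 5 did not pass (sams-1, sams-5, ahcy-1, metr-1 and cbs-1). A gene passed at an adjusted p under 0.05 in limma, whose moderated test asks whether the mean ratio over the 3 preps differs from 0, with Benjamini-Hochberg adjustment over all probes. Over the array, 32.0% of the 19710 probes passed, 15.8% higher and 16.2% lower, beside which the count of 5 in 10 is to be set. The median of the 10 genes was 0.43, against −0.0012 for all probes. The largest change among them, in pmt-1, ran opposite to that of its partner enzyme pmt-2.

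**Figure D1:**
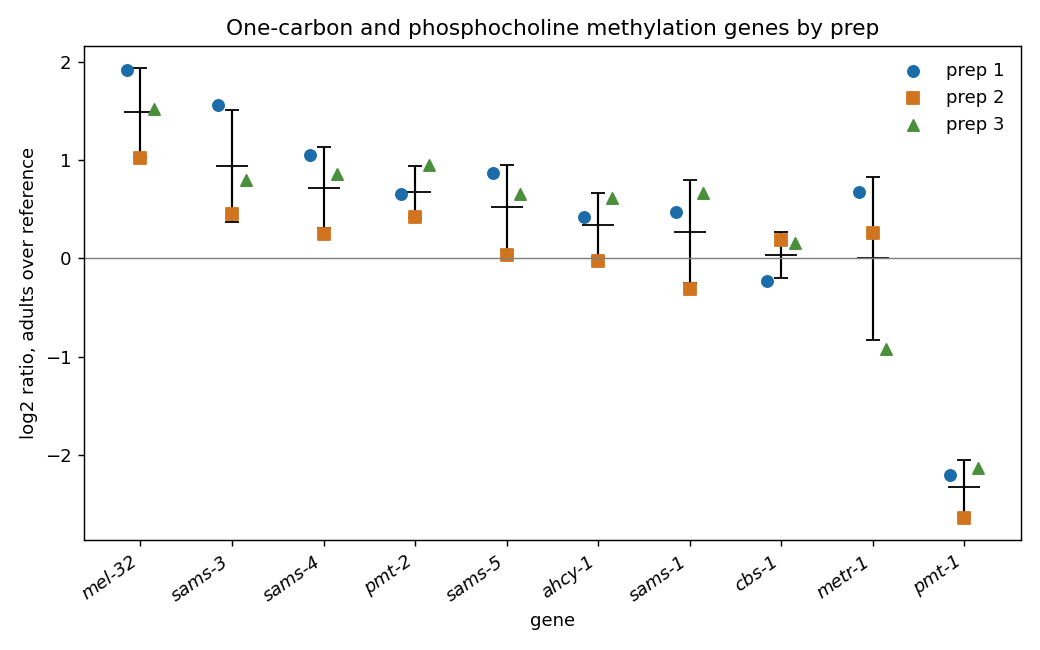
Log2 ratio of adults over reference (vertical axis) for each of the 10 genes (horizontal axis, in order of the mean). Coloured symbols are the 3 preps, and the horizontal bar and whiskers are the mean ± SD (n = 3). The 3 values of pmt-1 lie at −2.13 or below, and those of mel-32 at 1.02 or above.

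The phosphoethanolamine methyltransferase pmt-1 measured −2.2, −2.64 and −2.13 on preps 1, 2 and 3. The adults were low on every array, and no other member reached below −0.93 on any array. Its mean of −2.32 ± 0.27 (SD, n = 3) is a 5.0-fold lower RNA level in the adults, with a 95% interval in limma of −2.72 to −1.92 and an adjusted p of 1.4e-05. Of the 19710 probes, 143 had a lower mean, which places pmt-1 in the lowest 0.726% of the array.

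The second methyltransferase of the pathway, pmt-2, had log2 ratios of 0.66, 0.42 and 0.95 on preps 1, 2 and 3. All 3 lay above 0, and the mean of 0.68 ± 0.27 (SD, n = 3) corresponds to a 1.6-fold higher level (adjusted p = 0.015 in limma). Without prep 3 its mean was 0.54 and the call was lost (adjusted p = 0.163).

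The 2 enzymes of 1 linear pathway thus stood on opposite sides of the reference. Within an array, the log2 ratio of pmt-2 exceeded that of pmt-1 by 2.86 on prep 1, 3.06 on prep 2 and 3.08 on prep 3. The difference averaged 3.00 ± 0.12 (SD, n = 3), about 7.99-fold, and held on 3 of 3 preps. The exact sign-flip permutation test, two-sided, gave p = 0.25, the smallest that 3 arrays allow, and p = 0.35 after adjustment over the 7 pairs of paralogs compared. A difference within an array does not depend on how the array was centred. No other gene overlaps either of them in the RefSeq annotation of the assembly WBcel235.

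**Figure D2:**
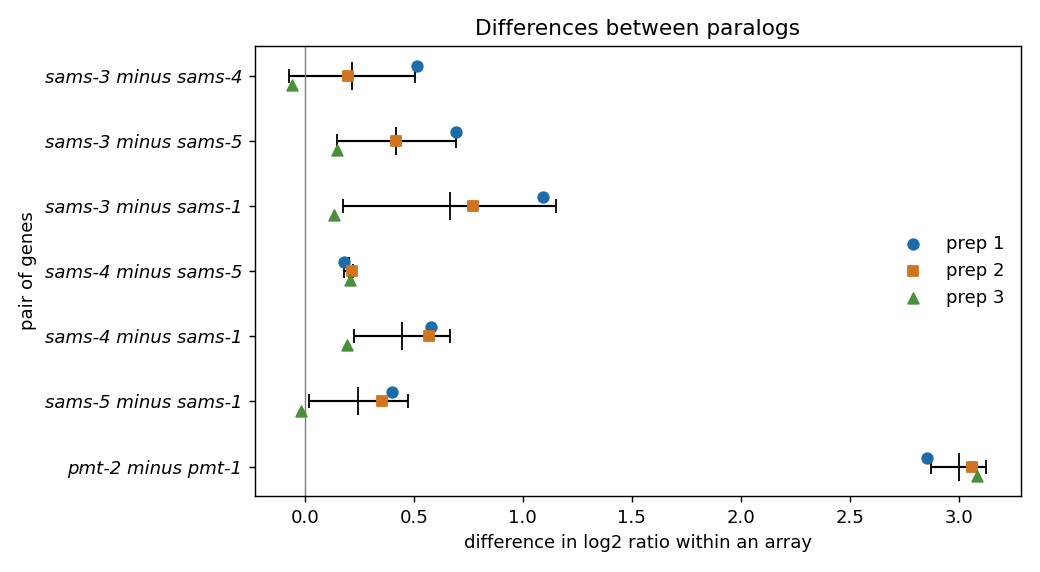
Difference in log2 ratio between 2 paralogs on the same array (horizontal axis) for the 6 pairs of SAM synthetase genes and the pmt pair (vertical axis). Coloured symbols are the 3 preps, and bars and whiskers are the mean ± SD. The pmt difference lies between 2.86 and 3.08, and the mean differences within the sams family between 0.20 and 0.67.

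All 4 SAM synthetase genes had positive means, and 2 of them passed the test. The highest was sams-3, at 1.56, 0.45 and 0.80 on preps 1, 2 and 3. The adults were above the reference on each array, with a mean of 0.94 ± 0.57 (SD, n = 3), a 1.92-fold higher level (adjusted p = 0.0073 in limma).

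Its neighbour on the chromosome, sams-4, had ratios of 1.05, 0.25 and 0.86 on preps 1, 2 and 3. All were positive, prep 2 being the lowest, and the mean of 0.72 ± 0.42 passed (1.65-fold, adjusted p = 0.017 in limma). Its call ended when prep 1 (adjusted p = 0.060) or prep 3 (0.077) was left out.

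For sams-5 the ratios were 0.87, 0.04 and 0.65, so that prep 2 stood near the reference while preps 1 and 3 lay above it. Its mean of 0.52 ± 0.43 did not pass (adjusted p = 0.070, 95% interval 0.08 to 0.96). It passed as higher after quantile normalization of the arrays (adjusted p = 0.046) and without prep 2 (mean 0.76, adjusted p = 0.027), whereas the mean dropped to 0.34 without prep 1 (adjusted p = 0.232) and 0.45 without prep 3 (0.264).

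The gene sams-1, whose loss lowers phosphatidylcholine, had ratios of 0.47, −0.32 and 0.67, with the adults above the reference on preps 1 and 3 and below it on prep 2. Its mean of 0.27 ± 0.52 did not differ from 0 (adjusted p = 0.378 in limma), with a 95% interval of −0.19 to 0.74, which leaves room for a rise of up to 0.74. With 1 prep left out, the mean ran from 0.08 (without prep 3) over 0.17 (without prep 1) to 0.57 (without prep 2), and it passed in none of these cases.

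Among the 6 pairs of sams genes, sams-3 exceeded sams-1 by 0.67 ± 0.49 and sams-5 by 0.42 ± 0.27. The gene sams-4 exceeded sams-1 by 0.45 ± 0.22. Each of these differences held on 3 of 3 preps. The exact sign-flip test gave p = 0.25 for each (0.35 adjusted over the 7 pairs), which is again the smallest possible. The pair sams-4 and sams-5 kept the steadiest distance: sams-4 was higher by 0.18, 0.22 and 0.21 on preps 1, 2 and 3, with an SD of 0.02, although both genes were far lower on prep 2 than on preps 1 and 3. The differences of sams-3 from sams-4 (0.22 ± 0.29) and of sams-5 from sams-1 (0.25 ± 0.23) changed sign on prep 3 (p = 0.50 for both, exact permutation test).

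These genes are close paralogs, and a probe of 1 can bind RNA of another. The separate values of sams-1, sams-3, sams-4 and sams-5, and the differences among them, are therefore uncertain. The annotated span of sams-3 also overlaps the gene C06E7.4, whose own probe had a mean of 0.02 (adjusted p = 0.957).

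The other cycle enzymes did not pass. S-adenosylhomocysteine hydrolase, ahcy-1, had ratios of 0.42, −0.02 and 0.61 and a mean of 0.34 ± 0.32 (adjusted p = 0.209, 95% interval −0.08 to 0.75). As for sams-1, preps 1 and 3 lay above the reference and prep 2 did not, and the mean moved between 0.20 without prep 3 and 0.51 without prep 2, passing in neither case.

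Methionine synthase, metr-1, which needs vitamin B12, was the least reproducible of the 10 genes. Its ratios were 0.68 on prep 1, 0.25 on prep 2 and −0.93 on prep 3, so that prep 3 stood in the lowest 4.87% of its array while on prep 1 80.5% of probes were lower. The mean of 0.00 ± 0.83 (adjusted p = 0.998, 95% interval −0.58 to 0.58) averages opposite signs and does not show that the RNA level was the same in both samples. Without prep 3 it was 0.46 (adjusted p = 0.248).

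Cystathionine beta-synthase, cbs-1, had ratios of −0.23, 0.19 and 0.15 and a mean of 0.04 ± 0.23 (adjusted p = 0.906). Its values straddled the reference, and the 95% interval of −0.36 to 0.43 leaves room for a change of up to 0.43 upward and 0.36 downward.

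Serine hydroxymethyltransferase, mel-32, named for a maternal-effect lethal phenotype, was the highest of the 10 genes. Its ratios were 1.92 on prep 1, 1.02 on prep 2 and 1.52 on prep 3, and the adults were at least 2.03-fold above the reference on each array. The mean of 1.48 ± 0.45 (SD, n = 3) is a 2.80-fold higher level (adjusted p = 0.00034 in limma, 95% interval 1.04 to 1.93), and 317 of the 19710 probes had a higher one.

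In the order of mean ratios, mel-32 was followed by sams-3, sams-4, pmt-2, sams-5, ahcy-1, sams-1, cbs-1, metr-1 and pmt-1. Of the 9 pairs of neighbours in this order, 2 differed by more than the SD of their difference: mel-32 exceeded sams-3 by 0.55 ± 0.18, and metr-1 exceeded pmt-1 by 2.32 ± 0.97. The ranges over the preps were apart for the second of these pairs only. The genes from sams-3 down to metr-1 form a run in which no neighbours were separated beyond their spread.

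**Figure D3:**
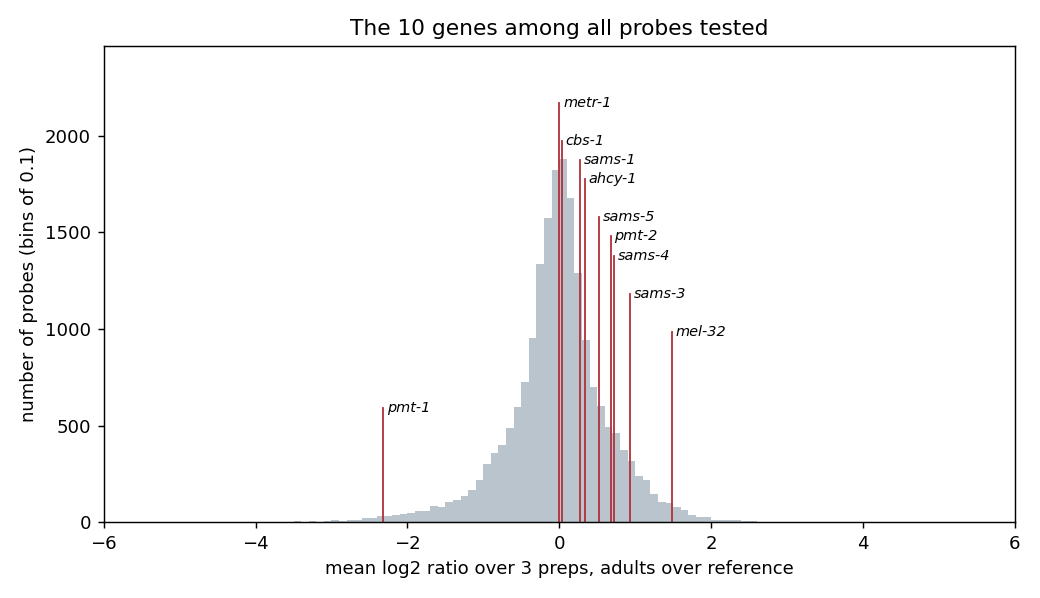
Number of probes in bins of 0.1 (vertical axis) by mean log2 ratio over the 3 preps (horizontal axis), with a red line at each of the 10 genes; the height of a line only places its name. The gene pmt-1 lies in the lower tail at −2.32, mel-32 in the upper tail at 1.48, and the other 8 between 0.00 and 0.94.

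The preps shared a pattern over these genes. For 8 of the 10, prep 2 gave the lowest ratio, the exceptions being cbs-1 and metr-1. Over the array this held for 38.2% of all probes and 41.8% of probes with a positive mean. It was not particular to these genes. Prep 2 also had the lowest mean for most lists of connected genes and tissue markers described below. The exceptions were the SAM-using methyltransferases, the body wall muscle markers and the neuron markers. The sams genes are all among the 8 and may share signal, so the 8 are not separate observations. Each prep is 1 array, so prep and array cannot be told apart. The mean over the 10 genes was 0.52 on prep 1, −0.03 on prep 2 and 0.31 on prep 3. Of the 10 genes, 5 were positive on all 3 arrays, 1 was negative on all 3 and 4 had mixed signs.

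Markers of the tissues of the worm were set beside these genes. Germline markers were higher for 9 of 9 genes, with a mean over the list between 1.52 and 2.14 on the 3 arrays, from him-3 (0.54) to glh-2 (2.31). Oocyte and eggshell markers averaged 1.16 to 1.91. Intestine markers were mixed, with 2 of 13 higher, 1 lower and a mean between −0.21 and 0.42, from the intermediate filament gene ifb-2 (−1.11) to pgp-1 (1.73). The list stood at 0.42 on prep 1 and below 0 on the other 2 arrays.

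Of 10 epidermis markers 3 were higher and 4 lower (array means −0.90 to −0.15), from the collagen genes rol-6 (−3.56) to col-19 (1.12). Neuron markers were lower for 6 of 9 (−1.29 to −1.06), from flp-1 (−3.42) to snb-1 (0.04), and sperm markers for 6 of 10 (−1.10 to −0.45), from msp-10 (−1.67) to msp-38 (0.47). Of 9 body wall muscle markers none passed in limma and 1 had an unadjusted p under 0.05 (array means −0.03 to 0.19), from unc-22 (−0.27) to tnt-2 (0.45). The part of any of these tissues in the ratios of the 10 genes was not tested.

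**Figure D4:**
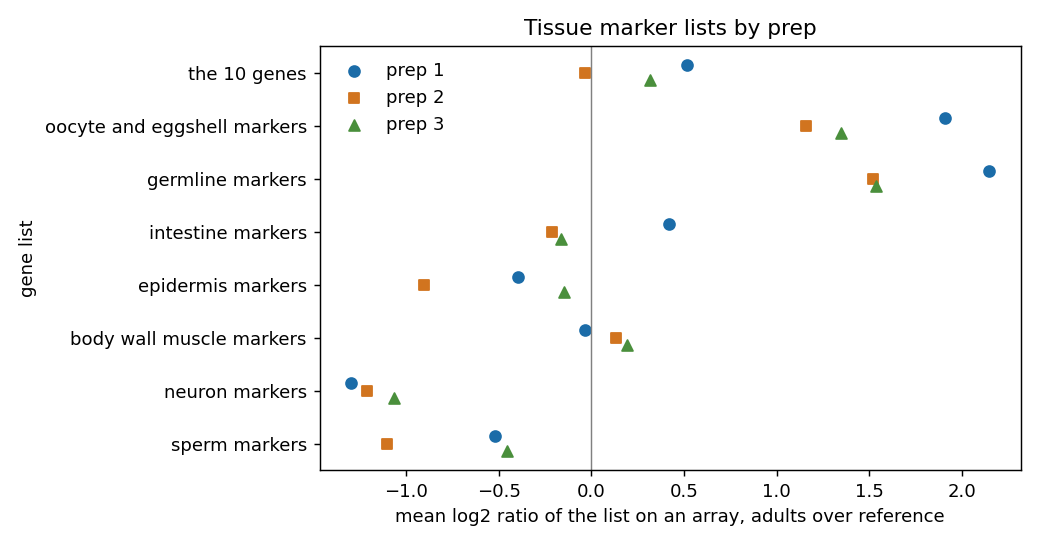
Mean log2 ratio of each tissue marker list, and of the 10 genes, on each array (horizontal axis); coloured symbols are the 3 preps. Germline markers lie at 1.52 or above and neuron markers at −1.06 or below, and the 10 genes between −0.03 and 0.52.

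Around the 10 genes, 6 lists of connected genes held 63 measured genes, of which 14 were higher and 11 lower in limma. These lists were chosen with earlier results of these data known. Their counts stand against a background of 32.0% of probes, 15.8% higher and 16.2% lower. The share of all probes at an unadjusted p under 0.05 in limma was not taken. Counts at that threshold, also those of the tissue markers, therefore have no background beside them. Leaving out each prep in turn, 16 of the 25 calls held every time.

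Of 14 genes of folate and vitamin B12 supply, 2 were higher and 3 lower, with a median of 0.19. The folate transporter family gene folt-2 stood at 1.68, 1.31 and 1.88 on preps 1, 2 and 3, about as far above the reference as mel-32 (mean 1.63 ± 0.29, adjusted p = 0.00011), while its relative folt-1, a folate transporter, had −0.32 ± 0.50 (adjusted p = 0.283). Among the genes of the glycine cleavage system, which also feeds 1-carbon units to folate, the H protein genes went apart: gcsh-1 was higher (0.66 ± 0.56, adjusted p = 0.038) and gcsh-2 lower (−0.57 ± 0.18, adjusted p = 0.028). The call of gcsh-1 was lost without prep 1 (mean 0.34, adjusted p = 0.156) and that of gcsh-2 without any of the preps (adjusted p = 0.059, 0.106 and 0.076).

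The formyl-folate dehydrogenase gene alh-3 was lower (−0.82 ± 0.32, adjusted p = 0.0065), and so was the folate dehydrogenase family gene dao-3 (−0.51 ± 0.19, adjusted p = 0.045). The call of dao-3 ended without centring (adjusted p = 0.052) and when prep 2 (0.301) or prep 3 (0.144) was left out. The methylene-folate reductase gene mthf-1, which makes the methyl folate that metr-1 uses, had ratios of 1.16, −0.13 and 0.59 and did not pass (adjusted p = 0.105), except without prep 2 (mean 0.87, adjusted p = 0.011). The methionine synthase reductase gene mtrr-1 had ratios of −0.85, 0.24 and 0.38 (adjusted p = 0.839). On preps 1 and 3 its sign was opposite to that of metr-1.

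Downstream of cbs-1, of 11 genes of transsulfuration and cysteine use 4 were lower and none higher in limma, with a median of −0.11. The 36.4% that passed stand beside 32.0% of all probes in either direction and 16.2% lower. At an unadjusted p under 0.05 the counts were the same, 4 and 0, with no share of all probes to compare. The lower genes were the sulfide quinone oxidoreductase gene sqrd-1 (−1.6 ± 0.28, adjusted p = 0.00012), the persulfide dioxygenase gene ethe-1 (−1.22 ± 0.30), the cysteine dioxygenase gene cdo-1 (−1.08 ± 0.37) and cysl-1 (−1.07 ± 0.05), a relative of cysteine synthases known as a sensor of sulfide. The values of cysl-1 were −1.04, −1.13 and −1.04 on preps 1, 2 and 3. All 4 calls held without each prep in turn. The cystathionine gamma-lyase genes, which follow cbs-1 directly, did not pass (cth-1 at −0.29 ± 0.38 and cth-2 at −0.08 ± 0.50), nor did the glutathione synthesis genes gcs-1 (0.17 ± 0.11) and gss-1 (0.34 ± 0.14).

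Of 17 genes of choline and ethanolamine phospholipid synthesis, 3 were higher and 2 lower, with a median of 0.18. The phosphatidylserine synthase gene pssy-2 was higher (0.94 ± 0.49, adjusted p = 0.0055), as were the choline kinase gene ckb-2 (0.89 ± 0.29, adjusted p = 0.0037) and the choline dehydrogenase gene chdh-1 (0.55 ± 0.14, adjusted p = 0.031). The choline kinase gene cka-2 (−0.74 ± 0.42, adjusted p = 0.015) and the phosphoethanolamine-activating enzyme gene pcyt-2.2 (−0.56 ± 0.26, adjusted p = 0.034) were lower. The calls of cka-2, pcyt-2.2 and chdh-1 were lost without prep 2 (adjusted p = 0.167, 0.198 and 0.074), that of pcyt-2.2 also without prep 1 (0.070) and that of chdh-1 also without prep 3 (0.224). The gene pcyt-1, which activates the phosphocholine that pmt-2 completes, had 0.24 ± 0.27 and did not pass (adjusted p = 0.367). The ratio of pmt-1 lay farthest from 0 among the phospholipid genes measured here.

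Genes of polyamine synthesis were also measured. The SAM decarboxylase gene smd-1, which draws SAM into polyamines, had ratios of 2.03, 0.85 and 1.18 on preps 1, 2 and 3 (mean 1.35 ± 0.61, adjusted p = 0.0011). Ornithine decarboxylase, odc-1, stood at 0.38 ± 0.31 (adjusted p = 0.151), and the arginase gene argn-1 was lower (−0.62 ± 0.33, adjusted p = 0.027), a call that ended when prep 1 (0.062) or prep 2 (0.189) was left out.

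Of 11 methyltransferases that act on histones, other proteins or RNA, 8 were higher and none lower in limma, with a median of 0.85. The 72.7% that passed stand beside 32.0% of all probes in either direction and 15.8% higher. At an unadjusted p under 0.05 the counts were the same, 8 and 0, with no share of all probes to compare. The highest were the germline histone methyltransferase gene mes-4 (1.65 ± 0.72), which also counts among the germline markers, and the histone methyltransferase genes set-2 (1.46 ± 0.11), set-16 (1.28 ± 0.28) and met-1 (1.08 ± 0.26). The gene set-17 was higher too (0.64 ± 0.10, adjusted p = 0.015), a call lost without prep 3 (0.113). The arginine methyltransferase gene prmt-1 (0.25), mett-10 (0.12) and mes-2 (0.11) did not pass.

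Of 8 measured regulators of lipid synthesis and the methionine cycle, 1 was lower and none higher in limma. The 12.5% that passed stand beside 32.0% of all probes in either direction and 16.2% lower. The nuclear receptor gene nhr-10, which acts with nhr-68 in the response to propionate, was lower (−0.67 ± 0.30, adjusted p = 0.017), a call lost without prep 2 (0.181), while nhr-68 did not pass (−0.28 ± 0.43). At an unadjusted p under 0.05, 2 of the 8 were lower and 0 higher, with no share of all probes to compare. The SREBP gene sbp-1 had ratios of −0.59, −0.46 and −0.27, all below the reference (adjusted p = 0.078), and passed as lower after quantile normalization (0.036).

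**Figure D5:**
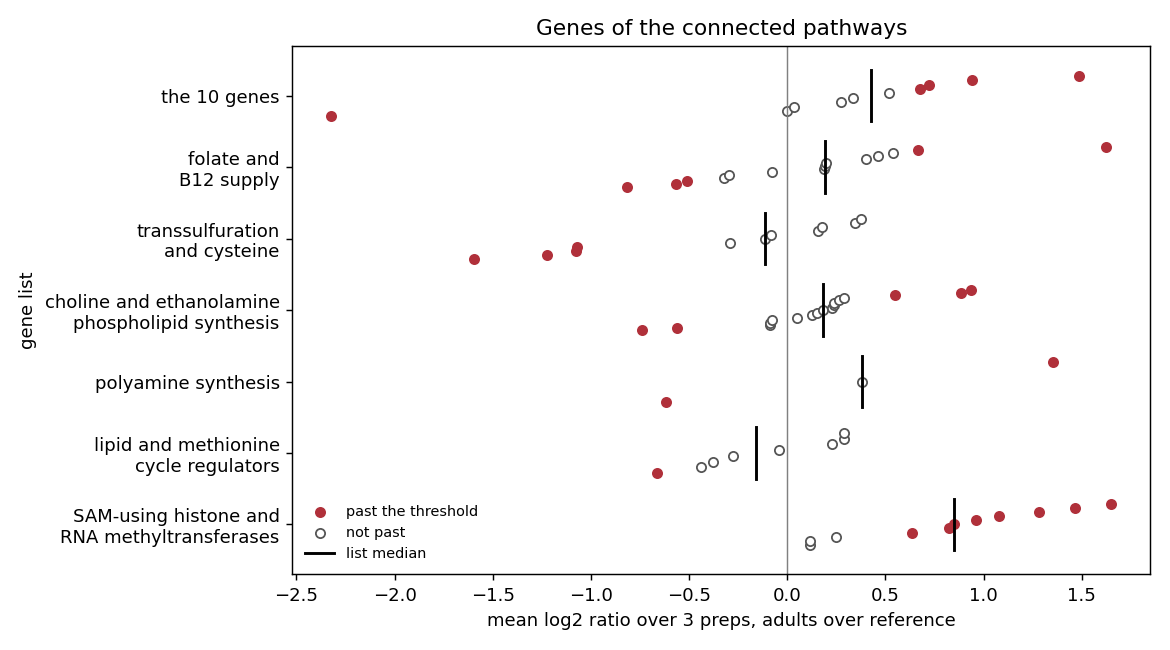
Mean log2 ratio over the 3 preps (horizontal axis) of each gene of the 10 and of the 6 connected lists (vertical axis). Filled points passed the threshold in limma, open points did not, and vertical bars mark list medians. The SAM-using methyltransferases have the highest median (0.85), and pmt-1 is the lowest point (−2.32).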

How the data were processed

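Per the labels, channel 1 of each array held the reference and channel 2 the adult RNA. The authors deposited log2 ratios for 20000 probes, 1 column per array, and how they normalized, filtered or centred them is not stated (deposited medians 0.019, 0.072 and −0.0087). The base follows from the values: as log2, 100% of ratios under 3 are multiples of 0.001 within 5e-05, against 10.7% as natural logs. Spot intensities were not used, so dim spots could not be filtered, and the number of arrays limits the precision.

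Genes came from the platform annotation (15655 probes with 1 gene, 198 with several, 4147 unnamed here), with symbols updated through RefSeq (WBcel235) for 15576 probes. No probe, promoter or protein sequence was used here. Arrays were centred on their median over the 19710 probes with 3 values. They were fitted with limma 3.58.1 (R 4.3.3, intercept only, lmFit and eBayes), after a test on simulated data. That test called 1 of 100 probes with a simulated log2 shift of 1, 53 of 100 with a shift of 2, and 0 of 19510 without a shift. Few probes were shifted there, so these shares do not carry over directly to the data. A gene with several probes takes their mean, their largest adjusted p, and a call when 1 probe passes. Alternatives were no centring, scaling, quantile normalization, probes on at least 2 arrays, robust or no moderation, 1 row per gene, and leaving out each prep.

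The 10 genes, the 6 connected lists and the 7 marker lists were chosen with earlier results of these data known. Named were all 10 genes, up to the 4 highest and 4 lowest past the threshold in each list, the ends of the marker lists, and the 3 genes nearest in pattern to sams-1, sams-3 and pmt-2. Listed genes named without passing the test were chosen for their role, after their values were seen.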

Additional observations from a re-analysis of the deposited data

How the results depend on the processing

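With 3 arrays and no spot intensities, dim spots could not be told from bright ones. Without moderation of the variances, 0 probes, 0 of the 10 genes and 0 genes of the connected lists passed after adjustment in either direction (4448 probes had an unadjusted p under 0.05), against 6302 probes in limma. Quantile normalization passed 7466 probes. With each prep left out in turn, 5138 to 5394 probes, 2 to 5 of the 10 genes as higher, 1 as lower, 12 to 14 connected genes as higher and 5 to 9 as lower passed; without prep 3, mel-32 and sams-3 remained as higher, and without prep 2, 5 connected genes were lower. The mean of pmt-1 ran from −2.42 to −2.16 and that of mel-32 from 1.27 to 1.72. The mean of metr-1 turned to −0.19 after scaling and −0.16 after quantile normalization, and ran from −0.34 (without prep 1) over −0.13 (without prep 2) to 0.46; that of cbs-1 ran from −0.040 (without prep 2) over −0.02 (without prep 3) to 0.17. These sign changes lie within the spread of both genes. The paralog differences kept their direction after scaling, after quantile normalization and with each prep left out. The other alternatives could not change them, because each gene has 1 probe and the difference is taken within an array. The difference of pmt-2 from pmt-1 lay between 2.96 and 3.07 with a prep left out. No paired analysis was possible because the 3 arrays form 1 group, so that no replicate number is shared between groups; differences between paralogs were taken within arrays.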

Other observations

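Genes whose ratios over the 3 arrays came closest to those of single members were looked up among 9235 genes with a standard name, by the Euclidean distance of their centred log2 ratios, and the distance over 3 arrays is a description only. Nearest to sams-1 were the troponin T gene mup-2 (distance 0.170), the ribosomal protein gene rps-29 (0.209) and the elongation factor gene eef-1B.2 (0.210), which like sams-1 were above the reference on preps 1 and 3 and below it on prep 2. Nearest to sams-3 were the proteasome gene pbs-6 (0.048), the nuclear export gene xpo-1 (0.077) and the Mediator gene mdt-30 (0.078). Nearest to pmt-2 were the actin gene act-2 (0.087), the C-type lectin gene clec-87 (0.096) and gtnt-29 (0.104). For pmt-1, looked up after its values were seen, the nearest were tag-209 (0.061), the metallothionein gene mtl-1 (0.187) and the fatty acid elongase gene elo-4 (0.213), with ratios between −2.80 and −2.11 on the arrays.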
